A study of Danio rerio with 5 samples.

Results

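The peaks of the repressive histone mark H3K27me3 were compared between zebrafish embryos at 48 hours post fertilisation (48 hpf), when the main organs have formed, and embryos at dome stage, a late blastula. All H3K27me3 peaks on the 25 numbered chromosomes were taken, 6434 in the 48 hpf list and 31983 in the dome list, together 38417 of the 781830 peaks in the 5 peak lists of the series. The other 3 lists hold DNA methylation peaks from MethylCap-seq, in which methylated fragments are captured before sequencing, at dome, 24 hpf and 48 hpf. Every library came from untreated whole embryos of mixed AB and Tubingen strain background, and the H3K27me3 libraries were made with the same antibody lot, per the labels. Each stage has 1 H3K27me3 library, so no difference between the stages has a replicate spread or a p-value, and everything below describes these libraries. A whole embryo is a mixture of cell types, so a peak may come from a part of the cells, and how many embryos went into a library is not stated in the labels used here.

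H3K27me3 is the trimethylated form of lysine 27 of histone H3 and is written by Polycomb repressive complex 2. It is known for marking genes of developmental regulators that are silent in a given cell, often as broad domains over CpG-rich sequence. In zebrafish the mark is known to be placed around the onset of zygotic transcription, and the domains are then kept or lost as cell types form. Genome sequence and gene annotation of danRer7, the build of the files, were not used here, so regions are given by coordinates, counted from 1, and no gene is assigned to them.

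The lists differed in grain as well as in length. The narrowest 48 hpf peak spanned 247 bp, a width shared by 292 peaks (4.54% of the list), and the narrowest dome peak 137 bp, a width shared by 3387 peaks (10.6%). Neighbouring peaks of the 48 hpf list were never closer than 990 bp, and those of the dome list never closer than 549 bp. In both lists the smallest gap was close to 4 times the smallest width (within 1% after 1 bp was taken off the gap). A stretch with gaps between these distances could thus be written as 1 peak at 48 hpf and as several at dome. The lowest −log10 q was 1.01 in both lists, so the deposited significance threshold was alike. Sequencing depth is unknown, since the lists hold no read counts.

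With the lists as deposited, most 48 hpf peaks lay on a dome peak, and few dome peaks lay on a 48 hpf peak. Of the 48 hpf peaks, 4680 of 6434 overlapped a dome peak by at least 1 bp (72.7%, Wilson 95% interval 71.6 to 73.8%, for counting error only). Of the dome peaks, 4987 of 31983 overlapped a 48 hpf peak (15.6%, 15.2 to 16.0%). Both lists marked 4.0 Mb, which was 62.7% of the 6.39 Mb in 48 hpf peaks and 22.4% of the 17.9 Mb in dome peaks. The dome list is much the longer one, and unequal shares follow from that alone, so they do not show loss of the mark. With the dome list reduced to the length of the 48 hpf list, by the highest −log10 q, 49.4% of 48 hpf peaks and 52.2% of dome peaks overlapped.

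The threshold of 1 bp decided few peaks. The best overlap was 50 bp or less for 43 of the 48 hpf peaks, which were 419 bp wide with a fold enrichment of 3.14 (medians), and 32 further 48 hpf peaks lay within 50 bp of a dome peak without touching it, with 458.5 bp and 3.13. In the dome list the corresponding numbers were 58 peaks (293 bp, fold 3.03) and 35 peaks (317 bp, fold 3.18). Peaks on either side of the threshold were thus narrow and alike in fold.

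Peaks without an overlap were placed differently in the 2 lists. The 1754 unmatched 48 hpf peaks had a median distance of 11.6 kb to the nearest dome peak, and 544 of them (31.0%) lay within 5 kb of one. The 26996 unmatched dome peaks had a median distance of 89.2 kb to the nearest 48 hpf peak, and 1555 (5.76%) lay within 5 kb of one. A longer list leaves shorter distances to it, so these distances follow in part from the number of peaks.

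Among peaks that met, the pairing was simple. The overlapping peaks formed 4625 groups, of which 4253 (92.0%) joined a single 48 hpf peak to a single dome peak. Another 319 groups joined 1 peak of 48 hpf to several dome peaks (678 in all), and 50 groups joined several 48 hpf peaks (101 in all) to 1 dome peak. The remaining 3 groups held several peaks of both lists. The pairs with a single peak on each side, called one-to-one pairs below, carry the comparison of width, edges and fold.

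The direction of the width difference depended on which peaks were compared. Over whole lists, 48 hpf peaks were wider, with a median of 760 bp (quartiles 440 and 1249 bp) against 397 bp at dome (208.5 and 660 bp). Within one-to-one pairs the 48 hpf peak was the narrower one, with a median of 845 bp (505 and 1329 bp) against 1014 bp at dome (606 and 1550 bp). Peaks without overlap had medians of 505 bp at 48 hpf and 345 bp at dome, and these unmatched peaks made up most of the dome list. The one-to-one sites thus ran against the direction of the whole lists. Overlap with the other list rose with width in both. From under 500 bp to 4000 bp or more it went from 55.4% to 100% at 48 hpf and from 5.33% to 89.1% at dome. Pairing thus selected broad peaks, more so at dome, and the part of this selection in the reversal was not tested.

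**Figure D1:**
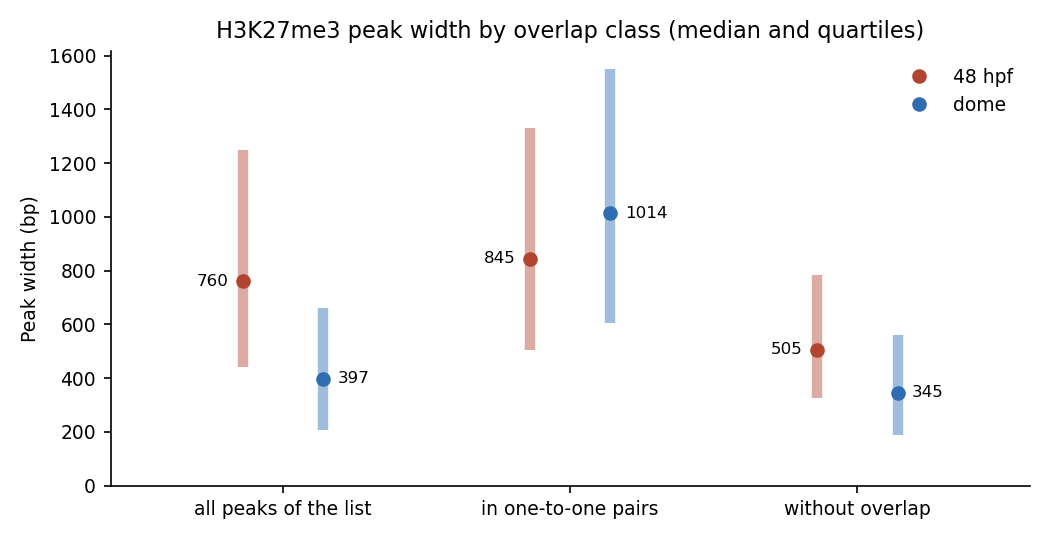
Width of H3K27me3 peaks in bp for all peaks, for peaks in one-to-one pairs and for peaks without overlap, with points for medians and bars from the lower to the upper quartile. The 48 hpf median is above the dome median in the full lists (760 and 397 bp) and below it in one-to-one pairs (845 and 1014 bp).

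In one-to-one pairs the median log2 ratio of widths, 48 hpf over dome, was −0.15 (95% interval of the median −0.17 to −0.12, treating pairs as independent), a ratio of 0.90. The 48 hpf peak was narrower in 2568 pairs (60.4%), wider in 1680 (39.5%) and of equal width in 5. Most pairs differed little. The widths were within 2-fold of each other in 3085 pairs (72.5%), the 48 hpf peak was at least 2-fold wider in 447 (10.5% of 4253 pairs) and at least 2-fold narrower in 721 (17.0%). The median ratio was below 0 on the log2 scale on each of the 25 chromosomes, from −0.35 to −0.04, and its interval lay wholly below 0 on 16 of them. The value of −0.35 was that of chromosome 4, and over the other chromosomes the lowest was −0.30.

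The difference varied with the size of the pair. Pairs were grouped by the geometric mean of their widths, which counts both widths alike. In the 163 pairs under 300 bp the 48 hpf peak was wider (medians of 301 bp at 48 hpf and 196 bp at dome, median log2 ratio 0.69). The narrowest widths that the lists allow, 247 and 137 bp, differ in the same direction. With these limits no pair under 300 bp could have a 48 hpf peak 2-fold narrower than its partner. The ratio of this class was thus in part set by the grouping. From 300 to 499 bp the ratio was near 0 (0.04, 631 pairs). It was −0.29 from 500 to 999 bp (1664 pairs), −0.16 from 1000 to 1999 bp (1407 pairs) and −0.08 at 2000 bp or more (388 pairs, medians of 2377 bp at 48 hpf and 2666 bp at dome). Relative to their width, broad pairs agreed best in extent. The bases in both peaks were 79.1% of the bases in either peak (median) in the broadest class. The share was 43.1% in the narrowest class and 38.3% from 300 to 499 bp. In bp the broadest class differed more than the narrowest, with median distances between paired edges of 193.5 and 83.5 bp. The classes between them had 139.5, 187.5 and 182 bp, from narrow to broad. Narrow peaks that overlap leave little room for distant edges. The same distance takes a smaller share of a broad pair.

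The width difference moved with the relative significance of the paired peaks. Each peak was ranked by −log10 q within its own list, and the pairs were divided into 4 sets of like size by the percentile at 48 hpf minus the percentile at dome. In the set where the 48 hpf peak ranked lowest relative to its partner, the median log2 width ratio was −0.44. It was −0.22 and −0.10 in the next sets, and 0.05 in the set where the 48 hpf peak ranked highest. Peaks of one-to-one pairs had a median −log10 q of 2.25 at 48 hpf and 3.76 at dome. Over the whole lists the order was the other, with medians of 2.05 at 48 hpf and 1.59 at dome. Pairing took peaks from higher in the dome list, at a median −log10 q percentile of 87.5 against 57.4 at 48 hpf. Whether weaker enrichment at the paired sites in the 48 hpf library gave narrower calls was not tested.

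The pairs with the largest width ratio joined a broad 48 hpf peak with a dome peak near the narrowest width. On chromosome 14 the 48 hpf peak from 615887 to 617739 spanned 1853 bp and the dome peak from 616825 to 616961 spanned 137 bp, a log2 ratio of 3.76. On chromosome 1 the 48 hpf peak from 34187853 to 34189600 spanned 1748 bp and its dome partner 137 bp. On chromosome 13, the 48 hpf peak from 54045156 to 54048042 (2887 bp) held a dome peak of 240 bp (54047785 to 54048024), with the left edge 2629 bp further out at 48 hpf and the right edge 18 bp further out. The difference there was almost wholly on the left side.

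At the other extreme, broad dome peaks were met by 48 hpf peaks near the narrowest width. On chromosome 7 a 48 hpf peak of 253 bp (27919419 to 27919671) lay in a dome peak of 3631 bp (27916732 to 27920362), a log2 ratio of −3.84. On chromosome 2 a 48 hpf peak of 259 bp (56060809 to 56061067) lay in a dome peak of 3700 bp (56059450 to 56063149). On chromosome 17 a narrow 48 hpf peak from 38429351 to 38429625 sat near the left end of a dome peak of 3866 bp (38429263 to 38433128). Their fold enrichments were 3.58, 2.91 and 1.71 at 48 hpf and 3.48, 2.48 and 2.09 at dome. Each fold is an average over a peak, so both values of a pair average over very unlike widths. With depth unknown as well, their difference does not show a change of the mark at a site.

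Edges were compared as outward shifts, positive where the 48 hpf peak reaches further than the dome peak. Over the 8506 edges of one-to-one pairs the median shift was −40 bp (95% interval −47 to −33 bp), with quartiles of −245 and 102 bp. Left and right edges had like medians, −41 and −37 bp, so the centres showed no net shift (median 0.5 bp). In size, the median edge shift was 171 bp. Edges lay within 100 bp of each other in 34.4% of cases, within 250 bp in 62%, and more than 1000 bp apart in 5.16%. Most edges thus differed by far less than the median widths of 845 and 1014 bp.

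**Figure D2:**
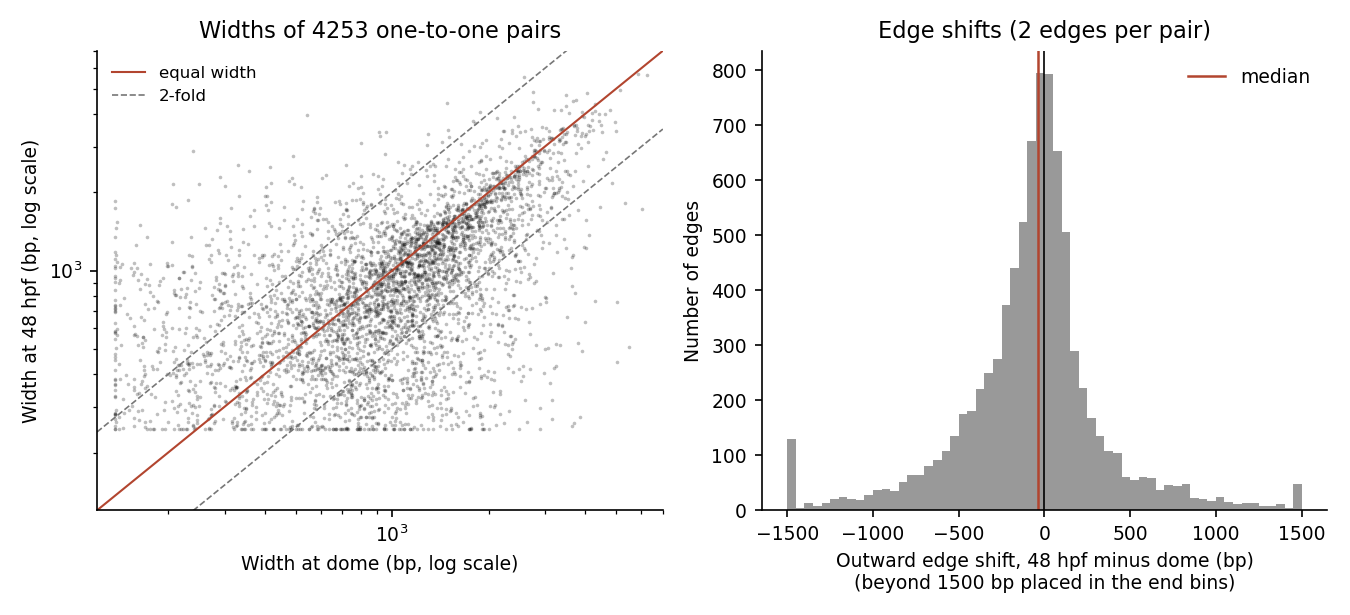
Left, width at 48 hpf against width at dome in bp on log scales for the 4253 one-to-one pairs, each a point, with lines at equal width and at 2-fold differences. Right, number of edges by outward edge shift in bp (48 hpf minus dome), with the median of −40 bp as a line; points crowd about the line of equal width for broad pairs and scatter for narrow ones.

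The peaks of a pair were often nested. In 1425 pairs (33.5%) the 48 hpf peak lay wholly inside the dome peak, the dome peak lay inside the 48 hpf peak in 767 (18.0%), and the other 2061 (48.5%) were staggered. In the median pair 91.3% of the 48 hpf peak was covered by the dome peak, and 76.0% of the dome peak by the 48 hpf peak. Both edges lay further in at 48 hpf in 1411 pairs and both were further out in 759. Across pairs the left and right shifts had a Spearman rho of −0.01 (4253 pairs that share the same libraries), so a shift at one edge gave no hint of the shift at the other. Edges lay further in at 48 hpf in 57.6% of cases and further out in 42.2%. Nested pairs would thus be common without any link between left and right edges.

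Some broad peaks kept their borders nearly to the base. Among pairs with both widths of at least 2000 bp, the smallest shifts were on chromosome 12, where the 48 hpf peak ran from 15475680 to 15478110 and the dome peak from 15475676 to 15478121, so that 99.4% of the bases in either peak were in both. On chromosome 21 the 48 hpf peak from 25219332 to 25221607 and the dome peak from 25219343 to 25221619 had widths of 2276 and 2277 bp. On chromosome 24 the 48 hpf peak from 43418633 to 43420723 (2091 bp) and the dome peak from 43418604 to 43420718 (2115 bp) differed by 29 bp on the left and 5 bp on the right. The 2 pairs on chromosome 5 chosen by the same rule, at 36646963 to 36649611 and at 48659871 to 48662137 in the 48 hpf list, shared 98.7% and 98.4% of their bases. The fold percentiles of these 5 pairs ranged from 2.69 to 76.1 in the 48 hpf list and from 1.10 to 95.1 in the dome list, so fixed borders occurred at low and high fold alike.

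Some broad 48 hpf peaks met a row of dome peaks. In these counts a peak holds each peak of the other list that it overlaps by at least 1 bp. The held peak may reach beyond it or be the wider one. Of the 4680 overlapped 48 hpf peaks, 322 held at least 2 dome peaks (6.88%, 6.19 to 7.64%): 291 held 2, 28 held 3, and 1 each held 4, 6 and 8. The share grew with width, from 0 of 1081 overlapped peaks under 500 bp and 97 of 1445 (6.71%) at 1000 to 1999 bp to 179 of 554 (32.3%) at 2000 to 3999 bp and 43 of 67 (64.2%) at 4000 bp or more. A 48 hpf peak under 500 bp could not overlap 2 dome peaks, since dome peaks were never closer than 549 bp. A wider peak has more room to overlap several, so some growth follows from width alone. The reverse was rarer with the lists as deposited: 53 dome peaks held 2 peaks of 48 hpf and 1 held 3. Dome peaks can lie 549 bp apart and 48 hpf peaks no closer than 990 bp, so the 2 directions rest on unlike spacing and list lengths. In the 322 peaks the width at 48 hpf was 0.97 times the span of the dome peaks from first to last and 1.45 times their summed width (medians). A divided 48 hpf peak covers the gaps between its dome peaks by definition. By the median it was about as wide as the row of dome peaks, and it was wider than the row in 118 of the 322.

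Most of these gaps were of a length that the 48 hpf list never shows. Of the 362 gaps between dome peaks under a 48 hpf peak, with a median of 728.5 bp and a range of 549 to 3654 bp, 289 (79.8%) were shorter than 990 bp, the smallest gap in the 48 hpf list. When dome peaks closer than 990 bp were joined, 71 of the 4680 overlapped 48 hpf peaks (1.52%) still held at least 2 dome peaks, of which 18 were among the 67 that were 4000 bp or wider. The count of divided peaks thus fell to 71 with dome peaks joined at this spacing, against 322 with dome peaks as deposited. In the reverse direction 53 dome peaks held 2 peaks of 48 hpf and 1 held 3. That count used dome peaks as deposited and was not taken with joined dome peaks, so it is not set against 71. The part of library depth in either count was not tested.

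**Figure D3:**
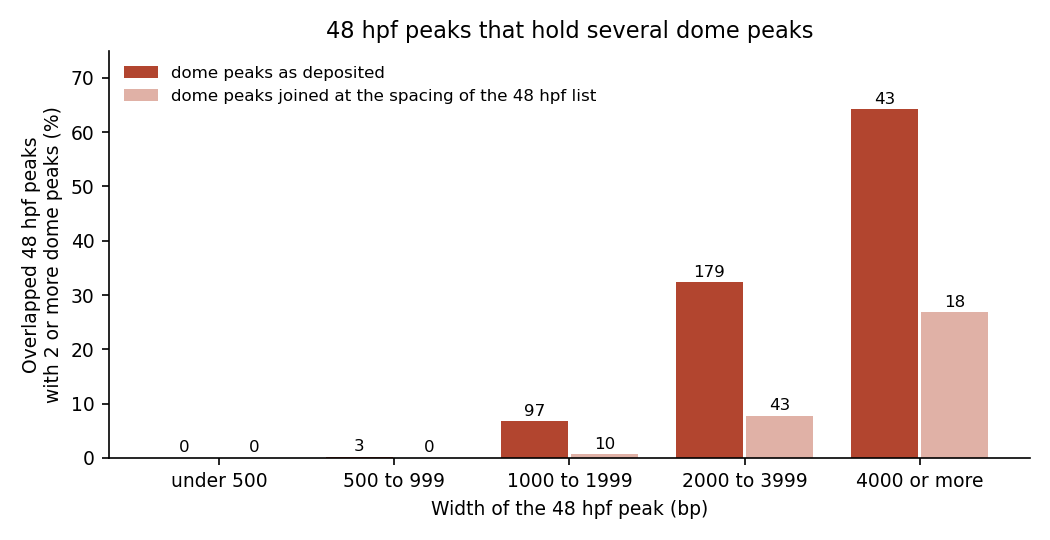
Share of overlapped 48 hpf peaks that overlap at least 2 dome peaks, in percent, by the width of the 48 hpf peak in bp, with the number of such peaks above each bar. Dark bars use the dome peaks as deposited and light bars the dome peaks joined at the spacing of the 48 hpf list; at 4000 bp or more the numbers are 43 and 18 of 67.

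The 2 most divided 48 hpf peaks were both on chromosome 16. The 48 hpf peak from 20311328 to 20321820, of 10493 bp, held 8 dome peaks of 145 to 1009 bp, which covered 38.8% of it and ran from 20311354 to 20322427. The 48 hpf peak from 20249964 to 20259655, of 9692 bp, held 6 dome peaks of 321 to 1035 bp, which covered 41.5% of it and ran from 20249770 to 20259552. The outer borders of these rows were within 26 and 607 bp of the 48 hpf borders at the first site, and within 194 and 103 bp at the second. After joining, 2 dome peaks were left under the first and 3 under the second. Fold enrichments were low at both stages, 1.71 and 1.75 at 48 hpf and 1.63 to 2.13 in the 14 dome peaks.

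**Figure D4:**
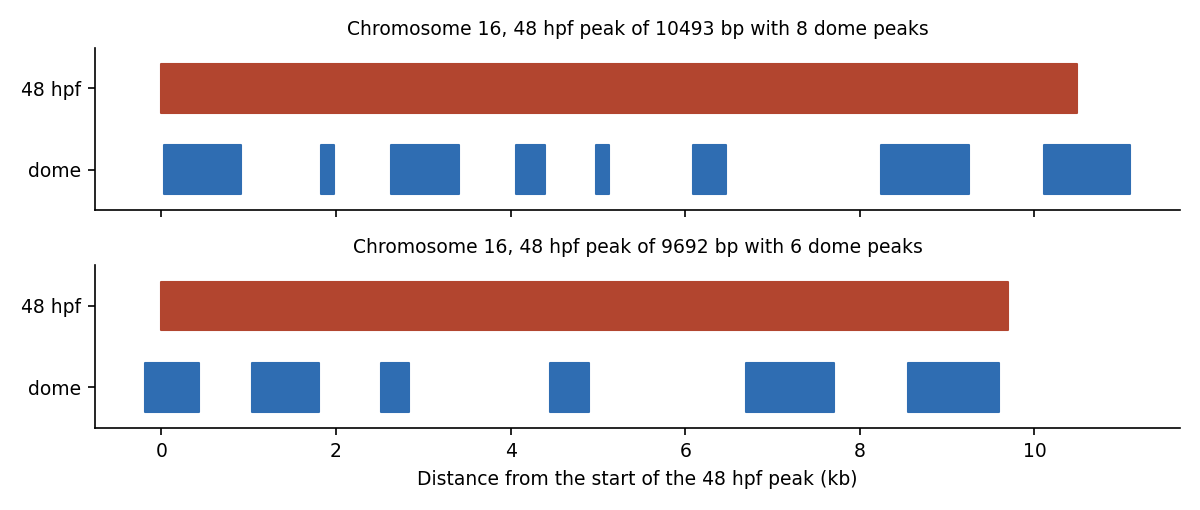
Map of the 2 most divided 48 hpf peaks, both on chromosome 16, with the 48 hpf peak above and the dome peaks below, by distance from the start of the 48 hpf peak in kb. The 48 hpf peaks of 10493 and 9692 bp span rows of 8 and 6 dome peaks that end close to the same outer borders.

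Other divided 48 hpf peaks included 1 of 5961 bp on chromosome 10 from 22255117 to 22261077 with 4 dome peaks of 170 to 875 bp, and 1 of 5824 bp on chromosome 11 from 28419042 to 28424865 with 3 dome peaks of 145 to 1595 bp. The reverse pattern was clearest on chromosome 15, where the dome peak from 34925915 to 34932718, of 6804 bp and the widest in its list, held 3 peaks of 48 hpf with widths of 1174, 830 and 771 bp. The gaps between those 48 hpf peaks measured 1428 to 2482 bp, longer than the smallest gap of either list. On chromosome 6 the dome peak from 59807012 to 59812505 (5494 bp) overlapped 48 hpf peaks of 1850 and 1176 bp with 4154 bp between them. Those 48 hpf peaks ran from 59806234 to 59813413, beyond both ends of the dome peak, and covered 24.4% of it.

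The fold enrichment given by the authors' peak caller, an average over a broad peak, was ranked within each list, where a percentile of 100 is the highest fold. Peaks of one-to-one pairs had a median percentile of 55.0 in the 48 hpf list and 77.2 in the dome list. Unmatched peaks had nearly the same median percentile in both lists, 47.6 at 48 hpf and 47.7 at dome. A class that makes up most of a list has a median percentile near that of the list. This holds for unmatched peaks at dome (84.4% of the list) and for one-to-one peaks at 48 hpf (4253 of 6434). The likeness and the contrast follow in part from these shares. The lists differ in length, so a percentile in one is not a change against the other.

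Overlap was most frequent at both ends of the fold scale. In the lowest decile of fold, 583 of 643 peaks of 48 hpf (90.7%, 88.2 to 92.7%) and 1125 of 3198 dome peaks (35.2%, 33.5 to 36.9%) overlapped the other list. In the highest decile the numbers were 546 of 644 (84.8%, 81.8 to 87.3%) at 48 hpf and 1380 of 3199 (43.1%, 41.4 to 44.9%) at dome. The lowest shares were 61.6% in decile 3 of the 48 hpf list and 3.16% in decile 4 of the dome list. Outside its lowest decile, low fold in the dome list went with little overlap, 6.32% in decile 2 and 4.99% in decile 3, against 15.6% over the list. The lowest decile had a median width of 1112 bp at 48 hpf and 560 bp at dome. In the highest decile it was 546 bp at 48 hpf and 715 bp at dome, so the lowest decile was the broader of these 2 at 48 hpf. At dome the lowest decile was the narrower of the 2 by median but the broader by mean (953 against 785 bp). Its median was also above that of the whole dome list, 397 bp.

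The lowest fold decile was crowded in both lists. In it, 79.2% of 48 hpf peaks and 75.5% of dome peaks had another peak of their own list within 5 kb. The shares were 4.50% and 21.1% in the highest decile and 19.6% and 24.6% in the whole lists. In deciles 2 and 3 they were 58.3% and 25.2% at 48 hpf, and 25.2% and 21.0% at dome. At dome the share was thus far above that of the list in the lowest decile alone. Peaks of the list covered 12.7% of the flanking 5 kb on either side at 48 hpf and 15.1% at dome in the lowest decile, against 0.255% and 1.06% in the highest. Whether the fold was measured over a local background is not given in the sources used here. Whether neighbouring enrichment raised such a background was not tested.

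Most one-to-one pairs were low in fold in both lists or higher in both. Most had a fold percentile of at least 30 in either list taken alone. Many pairs would thus fall on the same side in both lists without any relation of the folds, and that share was not worked out. In 792 pairs (18.6%) the fold percentile was under 30 in both lists, a bound set after the values were seen. These pairs were broad (medians of 1059.5 bp at 48 hpf and 1435 bp at dome) and crowded, with another peak within 5 kb for 69.7% at 48 hpf and 91.0% at dome. In 2881 pairs (67.7%) the percentile was at least 30 in both lists, with medians of 785 bp at 48 hpf and 950 bp at dome, and 4.44% and 16.0% had such a neighbour. Median log2 width ratios were −0.22 in the pairs low in both lists and −0.15 in those higher in both. The percentile was under 30 in the 48 hpf list alone in 349 pairs (8.21%), with a width ratio of 0.02, and in the dome list alone in 231 pairs (5.43%), with a ratio of −0.080. Over all pairs the folds of the 2 stages had a Spearman rho of 0.62 (4253 pairs from the same 2 libraries). Within the sets the rho was lower, 0.46 in pairs low in both lists and 0.31 in those higher in both. It was 0.06 in pairs low at 48 hpf alone and 0.13 in those low at dome alone. The sets were formed by fold, which narrows its range within each. In −log10 q the rho over all pairs was 0.41.

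**Figure D5:**
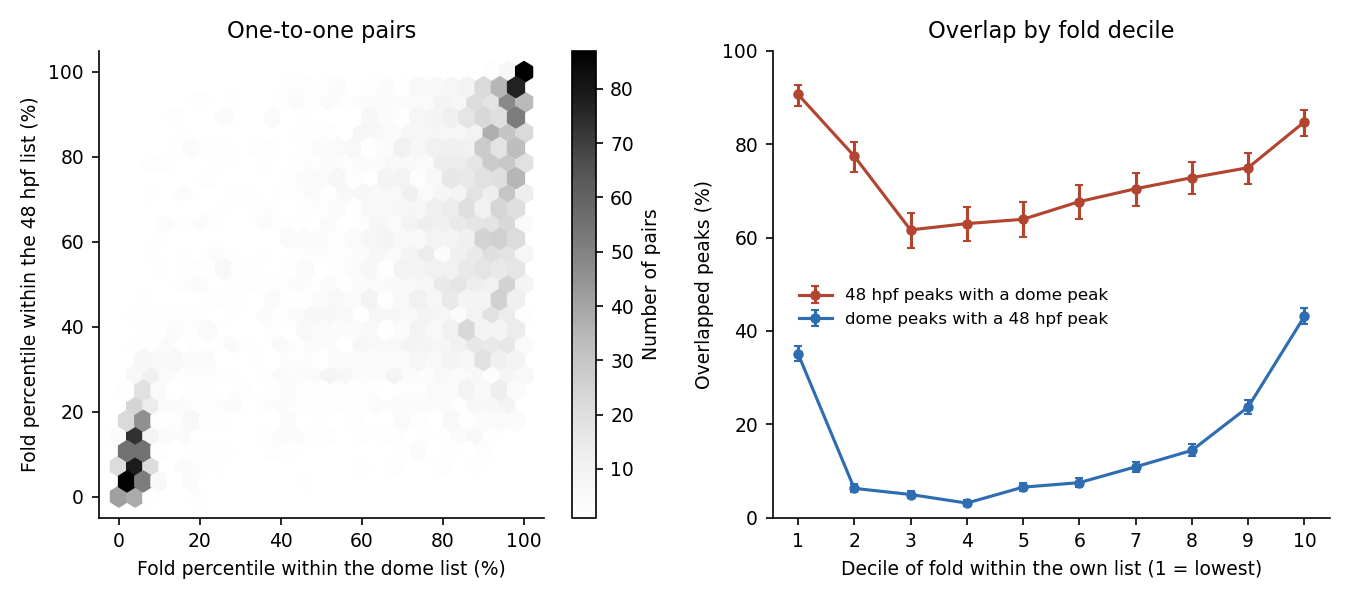
Left, fold percentile within the 48 hpf list against that within the dome list for one-to-one pairs, with darker cells for more pairs. Right, share of overlapped peaks in percent by decile of fold within the own list, with Wilson 95% intervals; the shares are highest in the lowest and the highest decile of both lists.

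Most of the strongest peaks by fold overlapped the other list. Of the 65 peaks of 48 hpf in the upper 1% by fold, 57 (87.7%, 77.5 to 93.6%) overlapped a dome peak, against 72.7% over the list. In the upper 1% of the dome list, 216 of the 320 peaks (67.5%, 62.2 to 72.4%) overlapped a 48 hpf peak, against 15.6% over the list. One-to-one partners existed for 55 of the 48 hpf and 202 of the dome peaks, and 48 pairs were in the upper 1% of both lists (87.3% of the 55 and 23.8% of the 202). Most of the 320 dome peaks thus had no partner of that rank, and no more than 65 could have had one. In these 48 pairs the width difference ran the other way. A wider 48 hpf peak was found in 40 of them, with medians of 605.5 bp at 48 hpf and 499.5 bp at dome, and the median edge lay 80 bp further out at 48 hpf. The narrowest widths of the lists differ by 110 bp in the same direction, and the part of that difference in these edges was not tested. These pairs were singled out after their values were seen.

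The leading pair lay on chromosome 20, with the 48 hpf peak from 4645126 to 4645764 (639 bp, fold 11.6, rank 1 of its list) and the dome peak from 4645222 to 4645742 (521 bp, fold 14.4, rank 5). On chromosome 5 the 48 hpf peak from 64236617 to 64237309 (693 bp, fold 11.3) met a dome peak of 558 bp (fold 14.4), and both edges were further out at 48 hpf, by 40 and 95 bp. On chromosome 2 the 48 hpf peak from 57209067 to 57209541 (475 bp, fold 11.1) met a dome peak of 271 bp (fold 15.6), and both edges were 102 bp further out at 48 hpf. Near-identical shifts were found at 2 more of the 5 leading pairs. They were 104 and 106 bp on chromosome 22 (28947282 to 28947755 at 48 hpf) and 102 and 108 bp on chromosome 2 (56692332 to 56692814 at 48 hpf). The last 3 sites lay 77.2% to 100% in MethylCap peaks at dome, 24 hpf and 48 hpf. For the same stages in turn, the cover was 38.5%, 40.8% and 0% at the chromosome 20 site. At the chromosome 5 site it was 0%, 66.8% and 38.5%. Over the 0.0346 Mb of all 48 pairs in the upper 1% of both lists it was 29.7%, 28.5% and 22.9%. A MethylCap peak lay in 20, 23 and 17 of these 48 pairs. When all one-to-one pairs were divided by width ratio, MethylCap peaks of dome covered 4.22% to 9.50% of the bases of a class. Those of 48 hpf covered 3.63% to 8.68%.

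The fold rank of some pairs differed widely between the lists. On chromosome 11 (1770351 to 1770614) the fold was 4.36 at 48 hpf (percentile 96.5) and 2.71 in the dome partner (7.54), and the site was wholly covered by MethylCap peaks at all 3 stages. The 48 hpf peak at 35107748 to 35108461 of chromosome 18, with a fold of 3.86 (percentile 91.1), had a dome partner with 2.74 (8.09) and no MethylCap peak. These sites ranked high at 48 hpf alone, and others did so at dome alone. On chromosome 13 (14835816 to 14836262) the fold was 2.23 at 48 hpf (percentile 15.6) and 5.62 in the dome partner (99.4). On chromosome 4 (17751417 to 17752689) it was 1.98 at 48 hpf (9.75) and 4.64 at dome (97.6), with like widths of 1273 and 1147 bp. The widest of the 5 pairs named for a lower rank at 48 hpf was on chromosome 22, where the 48 hpf peak from 37483053 to 37487453 (4401 bp, percentile 6.40) reached 2932 bp beyond the right edge of a dome peak of 1485 bp (88.7).

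DNA methylation peaks, a readout the pairing did not use, were scarcer in the bases of overlapped 48 hpf peaks outside dome peaks than in those marked at both stages. MethylCap peaks of 48 hpf covered 4.83% of the 4.0 Mb marked at both stages, 3.10% of the 1.02 Mb by which 48 hpf peaks reached beyond their dome partners, and 1.27% of the 0.305 Mb of gaps between dome peaks under 48 hpf peaks. MethylCap peaks of dome covered 6.0%, 3.76% and 1.88% of the same bases. The gaps came from the 322 divided 48 hpf peaks alone, which had a median width of 2505.5 bp. Of the 362 gaps, 15 held a MethylCap peak of 48 hpf (4.14%, 2.53 to 6.72%). The part of peak width in the lower cover of the gaps was not tested. The 1.83 Mb in overlapped dome peaks that no 48 hpf peak covered had 5.91% in MethylCap peaks of 48 hpf and 6.14% in those of dome. Counted as stretches, 8.73% (8.0 to 9.51%) of those in dome peaks alone and 10.7% (9.83 to 11.5%) of those marked at both stages held a MethylCap peak of 48 hpf. For MethylCap peaks of dome the shares were 9.41% (8.66 to 10.2%) and 11.9% (11.04 to 12.82%). Shares of stretches were thus lower in the dome-only class, while shares of bases were not. The stretches differ in length between the classes. All these classes lie in groups of overlapping peaks. In dome peaks without overlap the cover was higher than in any of them, 17.7% of bases by MethylCap peaks of 48 hpf and 20.9% by those of dome. In 48 hpf peaks without overlap it was 5.65% and 7.73%.

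Pairs that were narrower at 48 hpf held more methylation peaks. Over the bases in either peak of a pair, MethylCap peaks of 48 hpf covered 8.68% in pairs at least 2-fold narrower at 48 hpf, 4.71% in pairs within 2-fold and 3.63% in pairs at least 2-fold wider at 48 hpf. The corresponding values for MethylCap peaks of dome were 9.50%, 5.60% and 4.22%. At least 1 MethylCap peak of 48 hpf lay in 22.5% (19.6 to 25.7%) of the narrower pairs, in 12.7% (11.6 to 14%) of those within 2-fold and in 9.62% (7.22 to 12.7%) of the wider pairs. Without chromosome 4, whose long arm is known to be rich in repeats, the MethylCap cover at 48 hpf was 7.65%, 4.15% and 3.45%. The order of the classes was the same with MethylCap peaks of either stage. In the narrower pairs most of these bases lie in the dome peak, and in the wider pairs in the 48 hpf peak. Dome-only bases of overlapped peaks had more cover than the outer edges of 48 hpf peaks, 5.91% and 3.10% by MethylCap peaks of 48 hpf. The number of bases per pair also differs between the classes. The part of either in the order was not tested.

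Chromosomes resembled each other in the pairing, with chromosome 4 at the edge of several ranges. The share of 48 hpf peaks with a dome peak ranged from 65.9% on chromosome 14 to 80.5% on chromosome 4. The share of dome peaks with a 48 hpf peak ranged from 10.3% on chromosome 4 to 19.6% on chromosome 16. Chromosome 4 held 261 peaks of 48 hpf and 2127 of dome, or 8.15 dome peaks for each 48 hpf peak, against 4.05 to 6.23 on the other chromosomes. Its one-to-one pairs had the lowest median log2 width ratio, −0.35 (interval −0.47 to −0.25, 201 pairs).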

How the data were processed

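Peak lists of H3K27me3 ChIP-seq at 48 hpf and dome, 1 library each, were read as the authors deposited them. The submitters' processing notes name MACS2, SAMtools, Bowtie2 2.2.1 and CASAVA 1.8.2 and the build danRer7, without parameters. Input controls and pooling are not given in the sources used here. Both H3K27me3 lists have the layout for broad peaks, in which the deposited fold enrichment and the deposited −log10 p and −log10 q are averages over a peak; the deposited score is 10 times −log10 q without decimals. Of the MethylCap lists only the positions were used. Sequencing depth is unknown.

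Peaks on the 25 numbered chromosomes were paired by an overlap of at least 1 bp, and pairing was tested on simulated lists. Shares have Wilson intervals and medians have binomial intervals (95%), which treat peaks as independent and cover counting error only. Named regions are a selection of the 5 highest or lowest by width ratio, number of peaks held, edge shift (both widths of 2000 bp or more), fold percentile difference and summed fold percentile. Regions, lists and rules were chosen with earlier results of these data known. Python 3.11.15, numpy 2.4.6, pandas 2.3.3 and scipy 1.17.1 were used. Other settings are given at the end.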

Additional observations from a re-analysis of the deposited data

Results flagged for a closer look

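The H3K27me3 lists also held peaks outside the chromosomes that were compared. On the mitochondrial genome, which carries no nucleosomes, the 48 hpf list had 2 peaks with folds of 2.09 and 2.46, and the dome list had 5 peaks with folds of 1.30 to 1.8. These peaks are listed because they lie outside the sequences compared. Whether the 2 lists differ there was not tested, nor was the source of the peaks, and they entered no result except the setting with all sequences.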

How the results depend on the processing

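Under the settings tried, the width ratio, the edge shift and the rho of fold kept their sign, while the order of the 2 overlap shares turned round with lists of equal length. When 50% of the shorter peak had to be covered, 68.4% of 48 hpf peaks and 14.5% of dome peaks were shared, and 5.52% of overlapped 48 hpf peaks held several dome peaks. With a −log10 q of at least 2 the shares were 75% at 48 hpf and 25.9% at dome, the divided share was 8.53%, the median log2 width ratio −0.11, the median edge shift −32 bp and the rho of fold 0.71. With the higher 50% of each list these values were 80.7%, 17.7%, 8.82%, −0.11, −29 bp and 0.67. With the dome list reduced to the length of the 48 hpf list, 49.4% of 48 hpf peaks and 52.2% of dome peaks were shared, the width ratio was −0.18, the edge shift −57 bp and the rho 0.75; lists of equal length give similar shares by construction. With peaks within 1 kb joined, 15% of dome peaks were shared and the divided share was 1.58%. With dome peaks joined at the spacing of the 48 hpf list, a setting chosen after the data were seen, they were 15% and 1.52%. Over every overlapping pair the width ratio was −0.050, the edge shift −21 bp and the rho 0.68. With −log10 q in place of fold the rho was 0.41. In the 1332 pairs with both widths of at least 1000 bp, also chosen afterwards, the width ratio was −0.086 and the rho 0.74. In the 3894 pairs with both widths above 247 bp, likewise, the width ratio was −0.19 and the edge shift −51 bp. Leaving out chromosome 4, or using all sequences, moved none of the 6 values beyond its interval. The causes of these differences were not tested. No paired analysis was possible because each stage had 1 H3K27me3 library. The unknown depth limits what a missing peak means: it may lie below the detection limit of a library.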
